A study of Arabidopsis thaliana with 15 samples.

Results

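The step from 2 h to 3 h in 5 mM hydrogen peroxide (H2O2) was measured in roots of Arabidopsis thaliana by setting 3 libraries taken at 3 h against 3 taken at 2 h. Every gene of the count table entered the comparison, 14532 in all, and 9986 of them had enough counts to be tested. The other 4546 were set aside for low counts and have no value here. The 6 libraries belong to a set of 15, in 5 groups of 3 replicates lettered a, b and c: water, H2O2 at 5 mM for 1 h, 2 h and 3 h, and the same H2O2 for 2 h together with RB at 10 µM. RB stands in the sample titles and MRB in the treatment field, neither spelled out, and Rose Bengal, a photosensitizer, is named in the title of the series. Water is labelled 1 h in the treatment field and 0 in the sample titles, so its time in solution is uncertain. All 5 groups were wild-type seedlings of ecotype Columbia-0, 7 d old, treated whole in solution and pooled 30 to 50 to a replicate, with roots and shoots parted afterwards. No water samples of 2 h or 3 h were analysed here, so longer time in peroxide and longer time in solution cannot be told apart.

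Hydrogen peroxide is a reactive oxygen species that plant cells make in respiration, photosynthesis and at the plasma membrane, and that also acts as a signal. It oxidizes cysteine residues of proteins, and cells meet it with scavenging enzymes, glutathione-dependent detoxification, chaperones that hold damaged proteins, and checkpoints that slow the cell cycle. In Arabidopsis roots it is also linked to cell wall cross-linking and to the balance between division and elongation. Levels below are CPM, which are counts scaled to a common library size after correction by the trimmed mean of M-values (TMM). MARS-seq, the method used, tags the 3' ends of transcripts, and no correction for transcript length was made. Levels were compared between libraries, and CPM of different genes are set side by side only to show how many counts stand behind them. A difference is the log2 fold change of 3 h over 2 h from edgeR's quasi-likelihood model over the 15 libraries, given with its standard error (SE). A gene is called where its p, adjusted by the Benjamini-Hochberg method over the 9986 genes, is under 0.05.

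The 3 libraries at 2 h held 1093238 to 2456784 counts and those at 3 h 2580683 to 4080521, so that all 3 at 3 h were deeper than all 3 at 2 h. Replicates correlated at 0.933 to 0.950 in log2 CPM over the tested genes at 2 h and at 0.954 to 0.969 at 3 h, against 0.907 to 0.962 between both times. At one common depth of 689372 counts, 11774 to 12352 genes would be expected to appear in a library at 2 h and 10720 to 11522 at 3 h. The 3 libraries at 3 h gave the lowest such numbers of all 15, the lowest of the other 12 being 11774. Transcripts of the organelle genomes took 1.47% to 3.42% of the counts at 2 h and 1.54% to 2.34% at 3 h.

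At 3 h 287 genes were called against 2 h (2.87% of those tested), 69 of them higher (0.691%) and 218 lower (2.18%). Higher genes thus made up 24.0% of the calls. This balance moved when 1 library was left out, and without replicate a at 3 h 218 genes were called higher and 196 lower. Other libraries and settings moved it as well, as given further on. Before adjustment 1475 genes had p under 0.05, of which 653 were higher at 3 h. Among the 69 genes that rose, the difference ran from 0.76 to 2.98 with a median of 1.35, and 5 rose over 4-fold. Among the 218 that fell it began at -0.98 and its median was -2.40, and 166 fell over 4-fold by the fitted value. For 19 of these 218 the 3 libraries at 3 h held at most 3 counts together, and 147 of the other 199 fell over 4-fold, the largest difference among them being -4.70. Both groups of libraries were apart, with no overlap in CPM, for 286 of the 287 called genes and for 1811 of all 9986 (18.1%).

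The counts behind the called genes differed. The median level of the genes that rose went from 53.5 CPM at 2 h to 134 CPM at 3 h, and 39 of the 69 averaged at least 100 CPM at 3 h. The median of the genes that fell went from 14.4 to 2.92 CPM, and 14 of the 218 averaged at least 100 CPM at 2 h. Genes with a mean under 5 CPM over the 15 libraries had a median difference of -0.32 (1681 genes, 36 calls lower and 0 higher), while those at 100 CPM or more had a median of 0.08 (1730 genes, 13 lower and 25 higher). Raw counts summed over the group were lower at 3 h for 216 of the 218. The smallest called fall was -0.98, so this mostly follows from how the genes were chosen and does not decide the part of depth. The part that depth or the number of detected genes has in these calls was not tested beyond the alternatives given further on, and in bulk roots fewer cells of a type and less RNA per cell cannot be told apart.

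**Figure D1:**
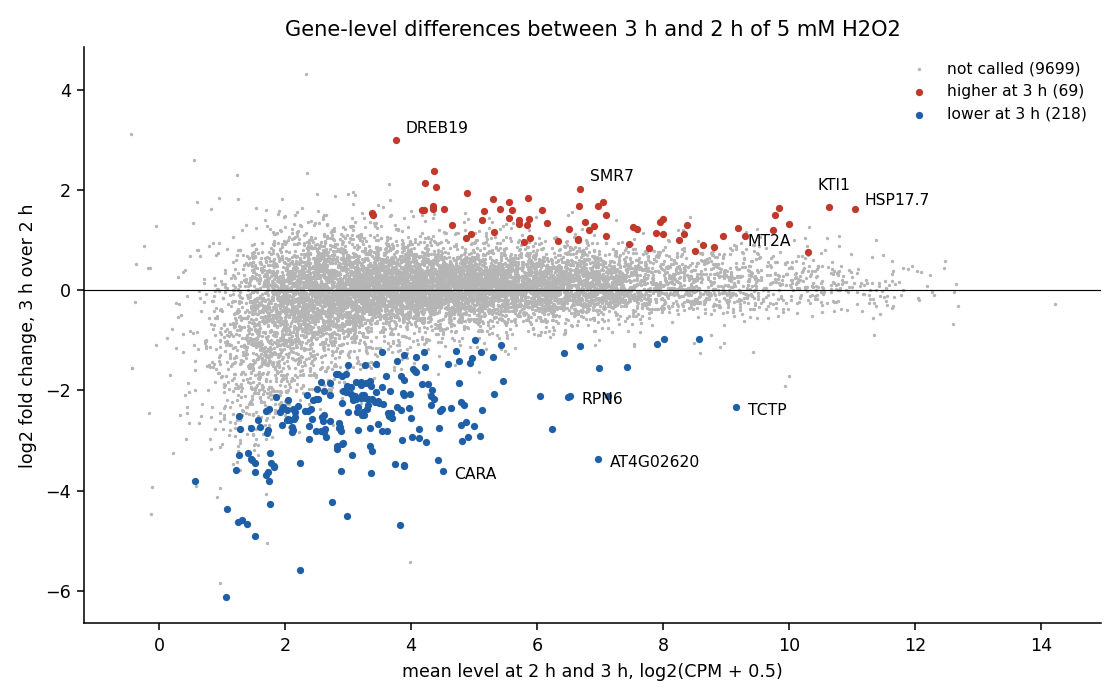
Log2 fold change of 3 h over 2 h for each of the 9986 tested genes (y axis) against its mean level in the 6 libraries as log2(CPM + 0.5) (x axis), with the 69 genes called higher, the 218 called lower and the rest in separate colours. Calls below 0 sit mainly at low levels, where the median of all genes is below 0 as well, and calls above 0 at high levels.

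The 218 falling genes had near-constant medians until 2 h, while the courses of the 69 rising genes before 2 h were mixed. Group means went up from water to 1 h and again to 2 h for 40 of the 69, and others, such as MT2A, KTI1 and EXLB1, were lowest at 1 h. The median level of the rising genes was 22.3, 19.5 and 24.6 CPM in water replicates a, b and c, 24.0, 31.8 and 26.8 CPM at 1 h, 48.7, 42.2 and 62.4 CPM at 2 h and 96.2, 104 and 179 CPM at 3 h. With RB at 2 h it was 38.3, 50.9 and 49.7 CPM. For the falling genes the median lay between 12.8 and 14.9 CPM in the 9 libraries of water, 1 h and 2 h, and at 2.76, 2.40 and 2.98 CPM in the 3 libraries at 3 h. With RB it was 20.5, 15.9 and 11.4 CPM. The values of all 3 libraries at 3 h lay below those of the 9 libraries of water, 1 h and RB for 191 of the 218 falling genes. They lay above those 9 libraries for 51 of the 69 rising genes. Of all tested genes, 408 had their 3 h values below and 289 above all 12 other libraries, those at 2 h included. That the called genes differ between 2 h and 3 h is how they were chosen. The counts of 191 and 51 use the same 3 h values and are thus in part built in. Only the water, 1 h and RB levels come from libraries outside that comparison.

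**Figure D2:**
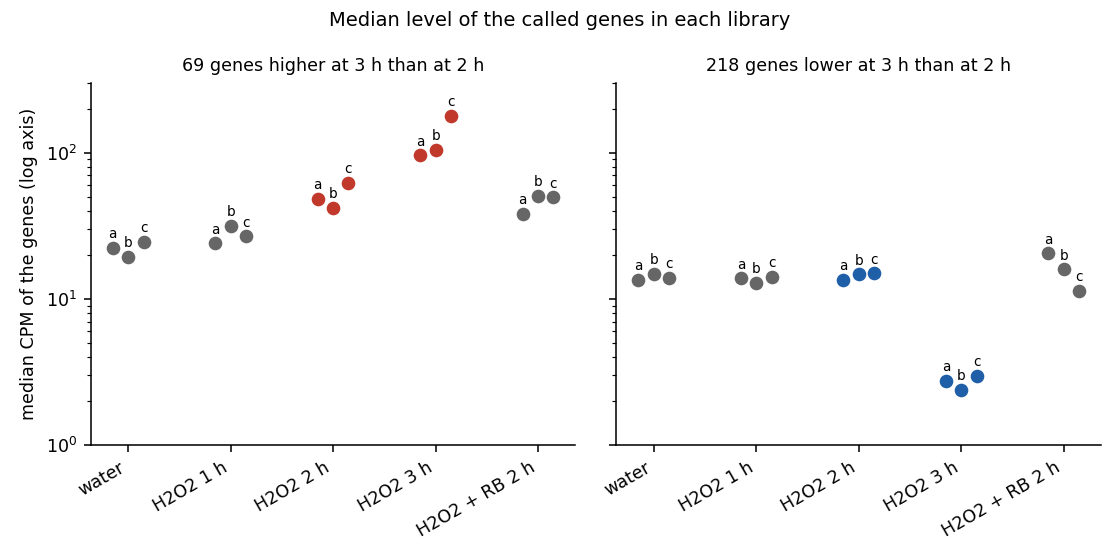
Median CPM (log axis) of the 69 genes higher and the 218 genes lower at 3 h in each of the 15 libraries, 1 point per library, by group. The 3 points at 3 h are the lowest for the falling genes, at 2.40 to 2.98 CPM, and the highest for the rising genes, at 96.2 to 179 CPM. The genes were chosen by their difference between 2 h and 3 h.

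Comparisons that use none of the 6 libraries were read for the same genes. Of the 69 rising genes, 20 (29.0%) were also higher at 1 h of H2O2 than in water and 8 (11.6%) lower, against 6.55% and 3.04% of all tested genes (9.59% in both directions). With RB at 2 h against water 43 (62.3%) were higher and 9 (13.0%) lower, against 11.6% and 9.62% of all. Those 20 and 43 genes were 3.06% of the 654 and 3.71% of the 1159 genes called higher in these comparisons. Of the 218 falling genes, 7 (3.21%) were higher and 3 (1.38%) lower at 1 h than in water, and 22 (10.1%) higher and 8 (3.67%) lower with RB. Shares of the falling genes called there were thus at or under those of all tested genes in each of the 4 counts. No test was run on these shares.

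Replicate c at 3 h carried the highest value for 65 of the 69 rising genes, while the lowest value of the 218 falling genes lay in a for 76, in b for 81 and in c for 61. Its TMM factor, 0.784, was the lowest of the 15 libraries, and a low factor raises CPM. Upper-quartile factors kept 46 of the 69 higher calls and all 218 lower ones, and RLE factors 69 and 208. The part of scaling in these calls was not tested. Without replicate c at 3 h 10 genes were called higher and 168 lower. Without replicate b at 2 h 9 were called higher and 124 lower, without replicate a at 2 h 37 and 145, and without replicate c at 2 h 44 and 165. Without replicate b at 3 h 47 and 117, and without replicate c at 1 h 105 and 232. Residuals of libraries with the same letter correlated between 2 h and 3 h, while the main model has no term for the letter. A model of the 6 libraries alone with the letter as a block, added after the data were seen, called 616 genes, 238 higher and 378 lower. The same block in the model of all 15 libraries called 275 genes.

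The 12 genes with the largest rise, among those that reached a mean of 20 CPM and whose groups did not overlap, were led by DREB19 and included ERF71, SMR7, SMR5, GSTU10 and FLOT1. DREB19 (AT2G38340), an AP2/ERF transcription factor of the DREB family, measured 1.90, 1.961 and 5.13 CPM in replicates a, b and c at 2 h and 13.5, 12.4 and 43.2 CPM at 3 h (2.98 ± 0.64, adjusted p = 0.0133). Counts behind these values were 5, 2 and 6 at 2 h and 59, 31 and 87 at 3 h. Replicate c at 3 h stood apart as the highest. ERF71 (AT2G47520), a group VII ERF of the response to low oxygen, measured 16.4, 4.90 and 12.8 CPM at 2 h and 30.1, 30.7 and 78.9 CPM at 3 h (1.94 ± 0.42, adjusted p = 0.0142). In water it had measured 1.99, 0.661 and 1.64 CPM.

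SMR7 and SMR5 encode SIAMESE-related inhibitors of cyclin-dependent kinases, small proteins known to hold the cell cycle after DNA damage and oxidative stress. SMR7 (AT3G27630) measured 19.4, 40.2 and 64.9 CPM at 2 h and 107, 119.8 and 264 CPM at 3 h (2.01 ± 0.50, adjusted p = 0.033). SMR5 (AT1G07500) measured 16.0, 16.7 and 18.8 CPM at 2 h and 27.3, 52.7 and 103 CPM at 3 h (1.82 ± 0.39, adjusted p = 0.013). Its path through the treatment started from 0.797, 1.65 and 0.821 CPM in water and 10.1, 8.69 and 15.8 CPM at 1 h. SMR7 and SMR5 were both highest in replicate c at 3 h.

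GSTU10 (AT1G74590), a tau class glutathione S-transferase that conjugates glutathione to reactive compounds, measured 26.997, 14.71 and 20.5 CPM at 2 h and 38.8, 48.3 and 131 CPM at 3 h (1.76 ± 0.39, adjusted p = 0.0161). FLOT1 (AT5G25250), a flotillin of plasma membrane microdomains, measured 11.03, 9.81 and 6.83 CPM at 2 h and 20.9, 32.7 and 38.2 CPM at 3 h (1.68 ± 0.33, adjusted p = 0.00671). Replicate c at 3 h was the highest in both genes, by the wider margin in GSTU10. AT2G41730, annotated as a calcium-binding site protein, measured 26.2, 19.6 and 29.0 CPM at 2 h and 53.3, 65.9 and 151 CPM at 3 h (1.83 ± 0.37, adjusted p = 0.00806).

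Annotation says less of the other 5 of the 12. AT2G15340, annotated as a glycine-rich protein, differed by 2.37 ± 0.58 and AT2G23110, a group 6 late embryogenesis abundant (LEA) protein, by 2.05 ± 0.52. The uncharacterized proteins AT5G24640 and AT5G05220 differed by 2.14 ± 0.57 and 1.75 ± 0.40. AT3G06325, annotated as a non-coding RNA, measured 27.4, 51.0 and 68.3 CPM at 2 h and 73.2, 137 and 251 CPM at 3 h (1.67 ± 0.37, adjusted p = 0.0142). It had also risen from 1 h to 2 h, by 2.94 ± 0.47 (adjusted p = 0.00524), and measured 1.20, 1.16 and 0.821 CPM in water. Calls of 11 of the 12 were lost without replicate c at 3 h (FLOT1 kept its call; differences of the 12 then 1.03 to 2.17), of 10 without replicate b at 2 h (1.55 to 2.89) and of 8 without replicate a at 2 h (1.38 to 2.65). Without replicate c at 2 h the calls of AT2G15340, AT5G24640 and AT2G23110 were lost (2.16 to 2.31), and that of AT5G24640 also without replicate b at 3 h (2.24) or replicate a at 1 h (2.16). With the letter as a block over the 15 libraries AT5G24640 lost its call (adjusted p = 0.0708). After thinning to equal depth 9 of the 12 were tested and 5 kept their calls, with that of FLOT1 lost (1.14, adjusted p = 0.222). In the 6 libraries alone, without a block, 8 of the 12 calls were kept.

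**Figure D3:**
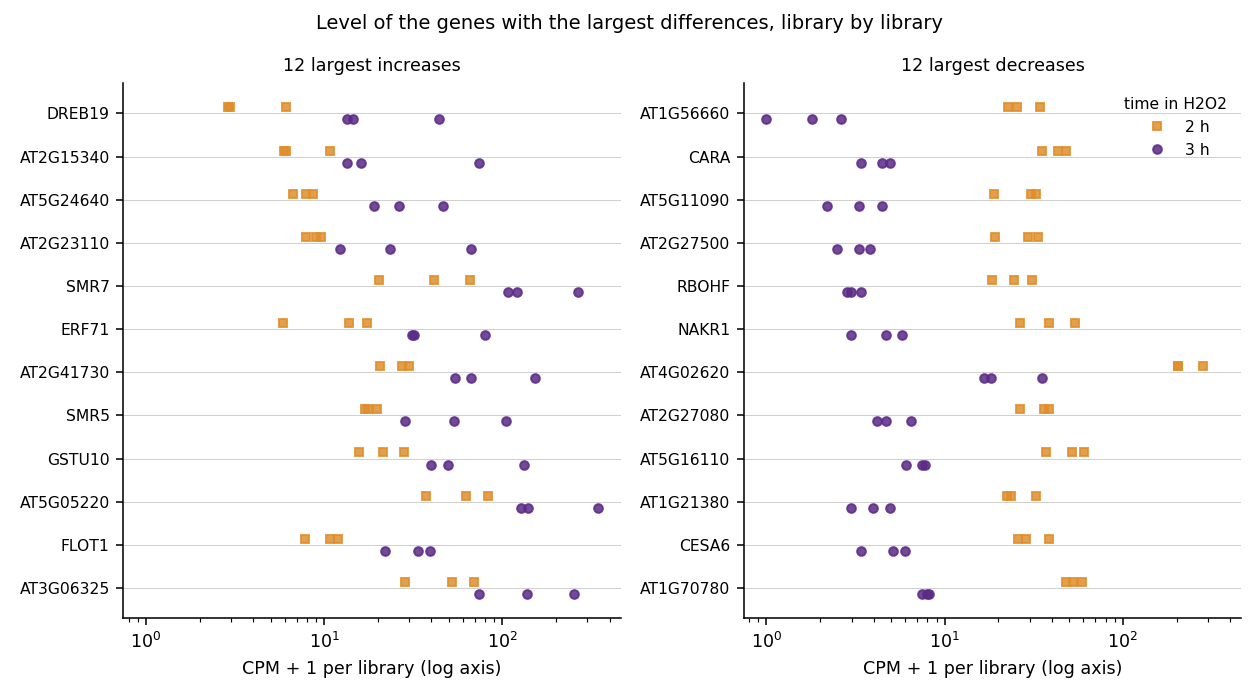
CPM + 1 (log axis) in each library at 2 h and 3 h for the 12 genes with the largest rise (left) and the 12 with the largest fall (right), 1 point per library. The 24 genes were chosen among those whose points do not overlap between the times. The rising genes usually have 1 library at 3 h above the other 2.

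Small heat shock proteins bind unfolding proteins without ATP and keep them soluble. Of 18 genes in the list 16 were tested, and 8 were higher at 3 h with none lower (median of the 16 differences 1.28, against -8.2e-05 over all tested genes, 0.691% of which were called higher). The 8 were members of the cytosolic classes (HSP17.6II, HSP17.7, HSP17.6A and HSP18.2) and of the chloroplast (HSP21), mitochondrial (HSP23.6 and HSP23.5) and endoplasmic reticulum (HSP22.0) forms. HSP17.6II (AT5G12020) measured 15.1, 6.61 and 14.8 CPM in water, 159.5, 181 and 155 CPM at 1 h, 511, 348 and 473 CPM at 2 h and 1039.7, 973 and 2134 CPM at 3 h. Its difference from 2 h to 3 h was 1.63 ± 0.33 (adjusted p = 0.00782). HSP17.7 (AT5G12030) measured 859, 846 and 1387 CPM at 2 h and 1719.6, 2312 and 5511 CPM at 3 h (1.63 ± 0.35, adjusted p = 0.0138). In both genes all libraries at 3 h exceeded all at 2 h, and replicate c at 3 h was the highest.

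HSP21 (AT4G27670) measured 26.2, 11.8 and 32.5 CPM at 2 h and 64.1, 58.7 and 94.8 CPM at 3 h (1.60 ± 0.39, adjusted p = 0.0269). HSP17.6A (AT1G59860) measured 433, 412 and 532 CPM at 2 h and 758, 869 and 2258 CPM at 3 h (1.50 ± 0.35, adjusted p = 0.0217). Both were at most 23.8 CPM in the water libraries. The other 4 called members were close to one another, at 1.42 ± 0.32 for HSP23.6, 1.36 ± 0.34 for HSP23.5, 1.35 ± 0.31 for HSP22.0 and 1.304 ± 0.28 for HSP18.2, with adjusted p from 0.0140 to 0.0353. Another 4 cytosolic members lay above 0 without passing the test, at 1.26 ± 0.36 for HSP17.6B (adjusted p = 0.0656), 1.08 ± 0.31 for HSP17.8 (adjusted p = 0.0661), 1.00 ± 0.34 for HSP17.6C (adjusted p = 0.139) and 1.00 ± 0.37 for HSP17.4 (adjusted p = 0.181). The remaining tested members were HSP21.7 at 0.61, HSP14.7 at 0.11, HSP18.5 at -0.06 and HSP15.4 at -1.39, the last at 4.56, 3.92 and 3.42 CPM at 2 h and 2.07, 0.799 and 1.49 CPM at 3 h.

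None of the 8 calls held without replicate c at 3 h, where their differences were 0.81 to 1.36, and 1 held without replicate b at 2 h (HSP17.6II, differences of the 8 1.28 to 1.55). Without replicate a at 2 h 4 held (1.27 to 1.77) and without replicate c at 2 h 7, HSP23.5 being lost. With the block over 15 libraries HSP23.5 lost its call and 9 members of the list were called. After thinning to equal depth 5 of the 8 held, and 5 held in the 6 libraries alone without a block. Without replicate c at 3 h the median of the list was above 0, as it was under every alternative (0.76 to 1.51).

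**Figure D4:**
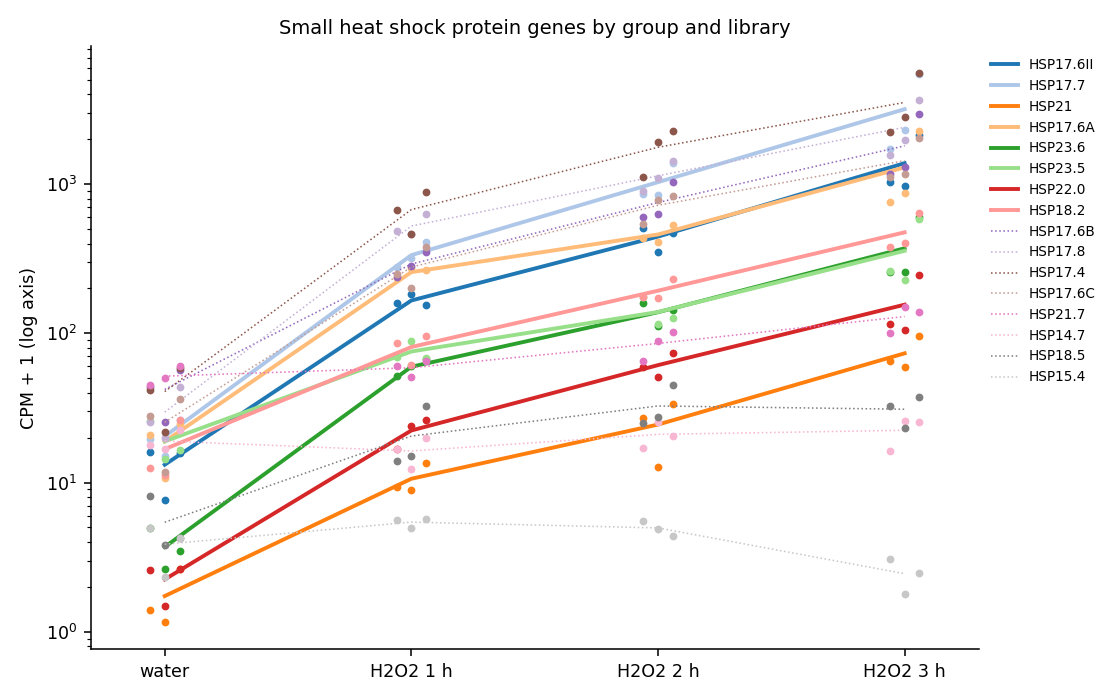
CPM + 1 (log axis) of the 16 tested small heat shock protein genes in water and at 1 h, 2 h and 3 h of H2O2, with lines through the group means and 1 point per library; solid lines mark the 8 genes called higher at 3 h than at 2 h. Most lines rise at each time, and HSP14.7, HSP18.5 and HSP15.4 stay flat or fall from 2 h to 3 h.

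Against 0.691% higher and 2.18% lower of all tested genes, 1 of 21 tested ATP-driven chaperones and their partners was higher and none lower (median 0.46). It was DJ (AT2G20560), a J-domain partner of HSP70, at 138, 138 and 166 CPM at 2 h and 223, 262 and 496 CPM at 3 h (1.15 ± 0.31, adjusted p = 0.0479). Its call was lost without any one of the 2 h libraries (1.13 to 1.298), without replicate b or c at 3 h (1.28 and 0.72), without replicate a at 1 h (1.16) and with the block over 15 libraries (adjusted p = 0.0624). HSP101 (AT1G74310), the disaggregase of heat tolerance, measured 249.8, 259.8 and 265 CPM at 2 h and 372, 366 and 464 CPM at 3 h, values that did not overlap but did not pass the test (0.63 ± 0.24, adjusted p = 0.187). HSP90.1 was at 0.94 and HSP70B at 0.81, also without a call.

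No heat shock factor was called among 11 tested factors, MBF1C included (median 0.55, 10 of 11 above 0). Of all tested genes 50.0% were above 0. HSFA2 (AT2G26150), the factor that sustains the heat response, measured 28.9, 21.6 and 26.48 CPM at 2 h and 54.0, 38.3 and 52.1 CPM at 3 h (0.89 ± 0.29, adjusted p = 0.108). MBF1C (AT3G24500), a transcriptional coactivator of the same response, measured 389, 377 and 535 CPM at 2 h and 557, 724 and 1740.0 CPM at 3 h (1.22 ± 0.39, adjusted p = 0.107). Its groups did not overlap, and replicate c at 3 h was again highest. HSFB1 was at 0.43 ± 0.19. With the block in the 6 libraries alone, 3 members of this list, HSFA2 (adjusted p = 0.0302) and MBF1C (0.00191) among them, and 12 small heat shock proteins were called. MBF1C was also called without replicate a at 3 h (1.54, adjusted p = 0.0285).

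Folding genes of the endoplasmic reticulum gave no call in either direction. Of their 18 differences 4 were above 0 (median -0.36), against 50.0% of all tested genes. BIP1 and BIP2, near-identical HSP70s of that compartment whose reads may be shared, were at -0.37 ± 0.23 and -0.48 ± 0.22 (adjusted p = 0.489 and 0.31).

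Hypoxia genes are turned on through group VII ERFs when low oxygen makes these factors stable. Of 15 tested, 3 were higher and none lower (median 0.58), against 0.691% higher and 2.18% lower of all tested genes. The 3 were ERF71, given above, LBD41 and HRA1. LBD41 (AT3G02550), a LOB domain factor among the core hypoxia genes, measured 112, 102 and 132 CPM at 2 h and 231, 210.0 and 364 CPM at 3 h (1.22 ± 0.24, adjusted p = 0.00788), and its call held in all 20 alternatives. HRA1 (AT3G10040), a trihelix factor that dampens the same genes, measured 10.6, 7.84 and 10.3 CPM at 2 h and 30.8, 20.8 and 38.7 CPM at 3 h (1.62 ± 0.36, adjusted p = 0.0159). ERF71 and HRA1 lost their calls without replicate c at 3 h (1.34 and 1.41) and without replicate b at 2 h (1.69 and 1.57). The fermentation genes ADH1 (0.76, adjusted p = 0.289) and PDC1 (0.72, adjusted p = 0.637) were not called.

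Of 8 tested genes of DNA damage and cell cycle inhibition 3 were higher, all of them SMR genes (median 0.42). Of all tested genes 0.691% were called higher. Beside SMR5 and SMR7, SMR4 (AT5G02220) measured 24.0, 28.4 and 37.6 CPM at 2 h and 50.3, 57.5 and 116 CPM at 3 h (1.32 ± 0.31, adjusted p = 0.0253). The related SIM, SMR1 and SMR6 were at -0.01, 0.27 and 0.30 without a call, and the damage genes RAD17 and RNR1 at 0.54 and 0.24. All 3 SMR calls were lost without replicate c at 3 h (0.86 to 1.49), without replicate a at 2 h (1.18 to 1.79) or without replicate b at 2 h (1.34 to 2.06).

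Of 37 tested histone genes 3 were called higher and none lower, and 36 had differences above 0 (median 0.46), against 50.0% of all tested genes. AT1G75600, an H3-type histone gene that stood at 1.59, 1.32 and 1.64 CPM in water, measured 11.03, 9.81 and 11.96 CPM at 2 h and 35.6, 19.2 and 46.6 CPM at 3 h (1.62 ± 0.37, adjusted p = 0.0194). RAT5, an H2A gene, was at 0.99 ± 0.23 (adjusted p = 0.0228) and AT5G10980 at 0.76 ± 0.20 (adjusted p = 0.0471). The 3 calls were lost without replicate c at 3 h (0.59 to 1.33) or without replicate b at 2 h (0.76 to 1.61). Those of AT1G75600 and AT5G10980 were lost without replicate a at 2 h (1.65 and 0.86), those of RAT5 and AT5G10980 without replicate c at 2 h (1.03 and 0.81) and that of AT5G10980 without replicate a at 1 h (0.78). AT5G10980 also lost its call with the block over 15 libraries (adjusted p = 0.0569). Histone transcripts are near-identical between copies, so reads may have been split among them. The abundant chromatin proteins HMGB2 (1.08 ± 0.28) and HMGB3 (0.92 ± 0.23), chosen after their values were seen, were called higher as well.

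Among metallothioneins, small cysteine-rich metal binders, 1 of 5 was called, against 2.87% of all tested genes. MT2A (AT3G09390) measured 323, 360.3 and 387 CPM in water, 79.3, 105 and 104 CPM at 1 h, 249, 338 and 459 CPM at 2 h and 555, 757 and 1146 CPM at 3 h, so that it was low at 1 h and above the water libraries at 3 h. Its second step was 1.24 ± 0.26 (adjusted p = 0.0108) and its first, from 1 h to 2 h, 1.86 ± 0.27 (adjusted p = 0.00409). The call was lost without replicate a at 2 h (1.07) or replicate c at 3 h (0.91). KTI1 (AT1G73260), a Kunitz trypsin inhibitor known to restrain cell death, was also lowest at 1 h and was the single call among 11 tested genes of cell death. It stood at 2090.0, 1796 and 1333 CPM in water, 343, 373 and 365 CPM at 1 h, 714, 580.5 and 993 CPM at 2 h and 1324, 1816 and 4058 CPM at 3 h (1.65 ± 0.33, adjusted p = 0.00731). Without replicate b at 2 h its adjusted p was 0.0514, and without replicate c at 3 h its difference was 1.04, with the call kept.

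CYP79B2 (AT4G39950) is a cytochrome P450 that turns tryptophan into the precursor of indole glucosinolates and camalexin. Against 2.87% of all tested genes, it was the single call among 21 tested genes of that pathway. It measured 512, 434 and 287 CPM at 1 h, 279.9, 395 and 286 CPM at 2 h and 590.1, 706 and 718 CPM at 3 h (1.07 ± 0.23, adjusted p = 0.0138), with 1367, 1099 and 992 CPM under RB. AKN2 (AT4G39940), an APS kinase that makes the sulfate donor for glucosinolates and no member of the lists, measured 133, 115 and 88.4 CPM at 1 h, 61.6, 68.6 and 75.2 CPM at 2 h and 129.96, 145 and 194 CPM at 3 h (1.20 ± 0.22, adjusted p = 0.00422). Both genes were thus lower at 2 h than at 3 h with no overlap. The CYP79B2 call was lost without replicate a at 2 h (1.01) or replicate b at 3 h (1.03), and that of AKN2 held in every alternative.

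Of 31 tested wall-loosening genes EXLB1 (AT4G17030), an expansin-like protein, was called higher, at 138, 135 and 104 CPM in water, 42.4, 47.8 and 36.3 CPM at 1 h, 93.5, 54.9 and 62.4 CPM at 2 h and 177, 159 and 269 CPM at 3 h (1.50 ± 0.25, adjusted p = 0.00188). It held its call in every alternative. XTH24, a xyloglucan-modifying enzyme of the same list, was called lower (-1.49 ± 0.39, adjusted p = 0.04), a call lost without replicate a or b at either time (-1.26 to -1.37), without replicate a at 1 h (-1.48) and with the block over 15 libraries (adjusted p = 0.0584). The median of the 31 was -0.28, and of all tested genes 0.691% were called higher and 2.18% lower. Class III peroxidases are secreted enzymes that use H2O2 in the wall. Against the same shares of all tested genes, 1 of 44 was called higher and none lower (median -0.01). It was AT4G36430, at 181, 137 and 162 CPM at 2 h and 246, 319.8 and 485 CPM at 3 h (1.12 ± 0.29, adjusted p = 0.0386), and had also risen from 1 h to 2 h (1.67 ± 0.30, adjusted p = 0.0165). Its call was lost without any single 2 h library (1.08 to 1.25) or without replicate b or c at 3 h (1.18 and 0.81).

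Further rising genes fell outside the rule for naming genes and were chosen after their values were seen. The polyubiquitin gene UBQ14 measured 511, 438 and 621 CPM at 2 h and 835, 963 and 1792 CPM at 3 h (1.19 ± 0.25). ICL, isocitrate lyase of the glyoxylate cycle, measured 67.7, 73.5 and 68.3 CPM and 147, 197 and 161 CPM (1.27 ± 0.29), and FDH, formate dehydrogenase, 251, 261 and 287 CPM and 402, 478 and 497 CPM (0.78 ± 0.18). The differences were 0.99 ± 0.26 for FBA6, a cytosolic aldolase, 1.50 ± 0.38 for SUS3, a sucrose synthase, 1.60 ± 0.40 for PYD4 of pyrimidine breakdown and 1.58 ± 0.33 for ENDO2, an endonuclease. IAA28, an Aux/IAA repressor of auxin responses in roots, was at 1.26 ± 0.27, the dehydrin XERO1 at 1.41 ± 0.36 and PDF2.1, a plant defensin, at 1.11 ± 0.28. AT1G19020 measured 481, 563 and 713 CPM at 2 h and 769, 1039 and 2551 CPM at 3 h (1.31 ± 0.33), the last library far above the other 2.

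The 12 genes with the largest fall included CARA, RBOHF, NAKR1, AT4G02620 and CESA6. They were chosen by the same rule, which asked for groups without overlap. AT4G02620, subunit F of the vacuolar proton pump (V-ATPase), measured 202, 202 and 280.2 CPM at 2 h and 15.6, 17.2 and 34.2 CPM at 3 h (-3.38 ± 0.32, adjusted p = 7.38e-06). The counts were 531, 206 and 328 at 2 h and 68, 43 and 69 at 3 h. Water libraries had held 188, 181 and 143 CPM, 1 h libraries 181, 239.6 and 205 CPM and RB libraries 292, 159 and 159 CPM, so the 3 h libraries were the lowest of all 15. CARA (AT3G27740), the small subunit of carbamoyl phosphate synthetase, which feeds arginine and pyrimidine synthesis, measured 46.8, 42.2 and 34.2 CPM at 2 h and 3.90, 2.40 and 3.47 CPM at 3 h (-3.62 ± 0.34, adjusted p = 7.38e-06). It had been at 35.5, 38.4 and 32.8 CPM in water and 38.7, 36.5 and 20.5 CPM at 1 h.

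RBOHF (AT1G64060) encodes a plasma membrane NADPH oxidase that makes superoxide, from which H2O2 forms as a signal. It measured 17.5, 23.53 and 29.9 CPM at 2 h and 1.84, 2.40 and 1.98 CPM at 3 h (-3.48 ± 0.40, adjusted p = 4.54e-05), after 12.4, 17.36 and 21.3 CPM in water and 21.2, 16.2 and 30.0 CPM at 1 h. The related RBOHD averaged 99.98 ± 24.2 CPM at 2 h and 88.8 ± 10.5 CPM at 3 h (mean ± SD, n = 3), a difference of -0.18 ± 0.30 (adjusted p = 0.863). CESA6 (AT5G64740), a cellulose synthase subunit of primary walls, measured 24.7, 27.5 and 37.6 CPM at 2 h and 4.13, 2.40 and 4.96 CPM at 3 h (-2.94 ± 0.32, adjusted p = 2.76e-05). Its partners CESA1 and CESA3 differed by -0.83 ± 0.24 (adjusted p = 0.0665) and -0.65 ± 0.63 (adjusted p = 0.712). All 3 libraries at 3 h were below the other 12 for RBOHF and CESA6.

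NAKR1 (AT5G02600), a phloem protein with a heavy metal-binding domain, had its highest level at 2 h. It measured 5.58, 3.97 and 10.7 CPM in water, 14.8, 6.12 and 23.7 CPM at 1 h, 25.5, 52.9 and 37.6 CPM at 2 h and 3.67, 4.79 and 1.98 CPM at 3 h (-3.40 ± 0.48, adjusted p = 0.000381). AT1G21380, a TOM1-like protein of ubiquitin-dependent sorting, measured 22.4, 31.4 and 21.4 CPM at 2 h and 3.90, 2.00 and 2.98 CPM at 3 h (-3.00 ± 0.37, adjusted p = 0.000101). AT2G27500, a glycosyl hydrolase, was at -3.50 ± 0.40, and AT2G27080, annotated as an LEA-type hydroxyproline-rich glycoprotein, at -3.02 ± 0.30. AT5G11090, a serine-rich protein, had its highest level in water, at 82.9, 54.7 and 49.3 CPM, 29.7, 31.4 and 17.9 CPM at 2 h and 2.296, 1.20 and 3.47 CPM at 3 h (-3.52 ± 0.44).

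The uncharacterized AT5G16110 and AT1G70780 were at -3.01 ± 0.32 and -2.93 ± 0.26, the second with the smallest adjusted p of the comparison (7.02e-06). AT1G56660, annotated as a MAEBL domain protein, had the largest fitted fall of the 12, -4.70 ± 0.91, from 21.67, 24.5 and 33.3 CPM to 1.61, 0.799 and 0 CPM. Of these 12 calls 11 held in all 20 alternatives, and that of AT1G56660 was lost when all libraries were thinned to equal depth (adjusted p = 0.0709).

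Other falling genes of high level, outside the rule and chosen after their values were seen, were also apart in every library. TCTP (AT3G16640), a conserved growth-related protein, measured 849.8, 1027 and 977 CPM at 2 h and 142, 195 and 227 CPM at 3 h (-2.34 ± 0.31, adjusted p = 0.000192). The annexin ANNAT1, a calcium-dependent membrane-binding protein, measured 87.5, 129 and 174 CPM and 12.6, 18.8 and 26.3 CPM (-2.78 ± 0.44), and ANNAT2 fell by 2.17 ± 0.44 on the log2 scale. SAR1B, a GTPase of vesicle budding from the endoplasmic reticulum, was at -2.54 ± 0.44. AT5G52050, a MATE-type efflux protein by annotation, was among the smallest falls, at 419.8, 619 and 479 CPM and 275, 307 and 185 CPM (-0.98 ± 0.26). MKK4, a kinase of the stress-activated MAP kinase cascade, was at -1.11 ± 0.27 and TPPG, a trehalose phosphate phosphatase, at -2.93 ± 0.40.

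At the low end EMB2762 had no count in any 3 h library, after 3.80, 4.90 and 0.854 CPM at 2 h. Taking 3 counts over the 3 libraries as the floor, 0.338 CPM, it was at least 9.43-fold lower at 3 h. With this gene at that bound the median of the 218 stayed at -2.40. For another 18 falling genes 1 to 3 counts were found at 3 h, among them STI, HMG2, ECT11 and ASF1B, and their fitted folds rest on those few counts.

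Coatomer coats the vesicles that return proteins from the Golgi to the endoplasmic reticulum. Of 10 tested subunits 2 were lower and none higher (median -0.52), against 2.18% lower and 0.691% higher of all tested genes. BETA1-COP (AT4G31480) measured 20.2, 17.65 and 17.1 CPM at 2 h and 1.84, 1.60 and 0.496 CPM at 3 h (-3.65 ± 0.40, adjusted p = 2.6e-05). EPSILON1-COP (AT1G30630) measured 17.9, 16.7 and 10.3 CPM at 2 h and 2.76, 3.59 and 3.97 CPM at 3 h (-2.16 ± 0.38, adjusted p = 0.00305). Both calls held in all alternatives, while DELTA-COP and GAMMA-COP were at -0.17 and 0.01 (adjusted p = 0.806 and 0.986). BETA1-COP has a near copy, BETA2-COP, that was below the count filter.

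Scavenging enzymes gave 2 calls among 31, both lower, with a median of 0.10. Of all tested genes 2.18% were called lower. PRXIIB (AT1G65980), a thioredoxin-dependent peroxiredoxin of the cytosol, measured 39.2, 32.4 and 38.4 CPM at 2 h and 5.51, 5.19 and 11.4 CPM at 3 h (-2.37 ± 0.33, adjusted p = 0.00037), with its call kept in all alternatives. GPX8 (AT1G63460), a glutathione peroxidase-like enzyme, measured 38.4, 33.3 and 59.8 CPM at 2 h and 9.18, 16.4 and 23.3 CPM at 3 h (-1.46 ± 0.35, adjusted p = 0.0263), and its call was lost without any single 2 h library (-1.12 to -1.55) and without replicate a or b at 3 h (-1.10 and -1.48). Glutathione S-transferases counted 1 higher, GSTU10, and 1 lower of 22 tested (median 0.02), against 0.691% higher and 2.18% lower of all tested genes. The lower gene was GSTU1, at 13.3, 9.81 and 17.1 CPM at 2 h and 3.90, 2.80 and 7.94 CPM at 3 h (-1.50 ± 0.39, adjusted p = 0.0412). Its call held in the set without replicate c at 3 h but in none of the sets without another library of these times (-1.25 to -1.61), nor without replicate a at 1 h (-1.49), nor with the block (adjusted p = 0.0517).

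Among 38 tested subunits of the 26S proteasome, the protease of ubiquitin-tagged proteins, 1 was called, against 2.87% of all tested genes, and the median was -0.06. RPN6 (AT1G29150), a lid subunit, measured 195, 124 and 126 CPM at 2 h and 34.0, 24.4 and 45.1 CPM at 3 h (-2.12 ± 0.30, adjusted p = 0.000381), a call kept in all alternatives. SULTR1;2, the main sulfate importer of the root epidermis, was the single call of 12 sulfate genes, at 9.13, 8.82 and 16.2 CPM and 2.296, 3.59 and 2.48 CPM (-2.01 ± 0.52, adjusted p = 0.0412). It was lost without any single 2 h or 3 h library (-1.63 to -2.22), without replicate a at 1 h (-1.996) and with the block (adjusted p = 0.0605). JAZ3, a repressor of jasmonate signalling and the single call of 24 jasmonate genes, was at 3.80, 3.92 and 5.98 CPM and 1.15, 0.399 and 0 CPM (-2.72 ± 0.65, adjusted p = 0.0257). Its call was lost without any single 2 h library (-2.45 to -2.85) and without replicate b or c at 3 h (-2.54 and -2.35).

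A list that does not hold every ribosomal protein gene had 81 tested members, of which 3 were lower and none higher (median -0.04), against 2.18% lower of all tested genes. AT3G47370 and AT3G45030, which encode the same S10p/S20e protein family, were at -2.23 ± 0.31 (adjusted p = 0.000353) and -2.07 ± 0.35 (adjusted p = 0.00213), and AT5G16130 of the S7e family at -2.07 ± 0.33 (adjusted p = 0.00113). A further 3 called genes of such proteins, AT2G17360, RPS18C and AT5G47930, lie outside that list. The other S10p/S20e copy AT5G62300 was at -0.18 ± 0.56 without a call. Of the S4 genes AT2G17360 measured 31.9, 39.2 and 37.6 CPM at 2 h and 7.81, 7.99 and 3.97 CPM at 3 h (-2.40 ± 0.34, adjusted p = 0.00037), while AT5G58420 and AT5G07090 were at -0.29 ± 0.31 and 0.11 ± 0.19. Of the S18 genes RPS18C was at -1.82 ± 0.32, AT1G34030 at -1.57 ± 0.62 without a call (adjusted p = 0.218) and PFL at 0.12 ± 0.30. Of the S27 genes AT5G47930 was at -2.40 ± 0.43 (adjusted p = 0.00315) and RS27A at -0.77 ± 0.54. These copies were picked after values were seen, the differences between copies were not tested, and reads of near-identical copies may have been assigned to the wrong member.

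Of 19 tested extensins, rod-like wall proteins that peroxidases cross-link, 1 was called lower and 2 had differences above 0 (median -1.56). Over all tested genes 2.18% were called lower and 50.0% had differences above 0. The called gene LRX3 (AT4G13340), a leucine-rich repeat extensin, measured 315, 350.1 and 99.9 CPM at 2 h and 113, 82.3 and 67.5 CPM at 3 h (-1.54 ± 0.36, adjusted p = 0.0217), and replicate c at 2 h lay below replicate a at 3 h, the single overlap among the called genes. Without replicate a or b at 2 h (-1.32 and -1.19) or replicate b or c at 3 h (-1.49 and -1.39) its call was lost. EXT3 averaged 1546 ± 1211 CPM at 2 h and 409 ± 274 CPM at 3 h (mean ± SD, n = 3) with an adjusted p of 0.0504, and EXT21 1560.1 ± 1200.1 CPM at 2 h and 477 ± 320.4 CPM at 3 h (mean ± SD, n = 3; adjusted p = 0.106). Extensin repeats are alike between genes, so reads may be shared.

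Arabinogalactan proteins, heavily glycosylated surface proteins, counted 2 lower of 28 and none higher, with 5 of the 28 above 0 (median -0.50). Of all tested genes 2.18% were called lower and 50.0% were above 0. AGP18 (AT4G37450) measured 148, 168 and 104 CPM at 2 h and 81.3, 70.7 and 39.2 CPM at 3 h (-1.13 ± 0.30, adjusted p = 0.0482). AGP7 (AT5G65390) measured 334, 440.3 and 258 CPM at 2 h and 220.2, 177 and 123 CPM at 3 h (-0.98 ± 0.26, adjusted p = 0.0427). At 1 h they had measured 294, 171 and 242 CPM and 767, 466 and 624 CPM, above all 2 h and 3 h libraries. AGP18 lost its call without any single 2 h library (-0.92 to -1.23) or replicate b or c at 3 h (-1.20 and -0.88), without replicate a or c at 1 h (-1.11 and -1.07) and with the block (adjusted p = 0.0589). AGP7 lost its call without replicate a or b at 2 h (-0.97 and -0.71), b or c at 3 h (-0.9998 and -0.79) or a or c at 1 h (-0.97 and -0.93).

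**Figure D5:**
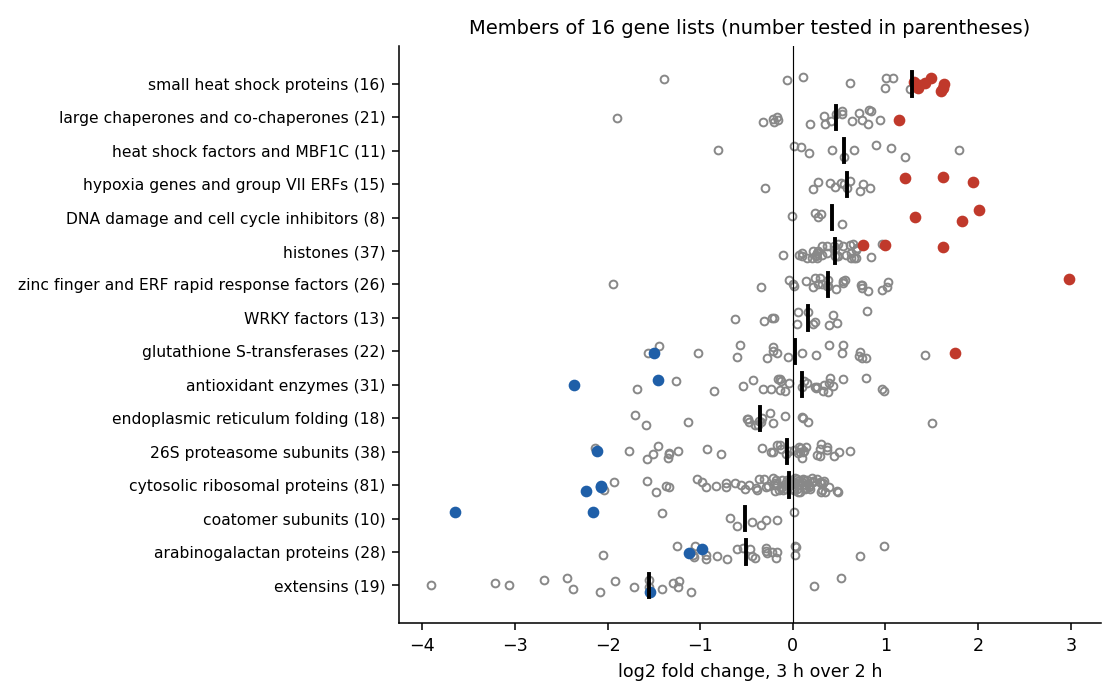
Log2 fold change of 3 h over 2 h (x axis) for each tested member of 16 gene lists, 1 point per gene, with called genes coloured and a bar at each list's median. Small heat shock proteins lie mostly above 0 (median 1.28), extensins mostly below 0 (median -1.56), and cytosolic ribosomal proteins around 0 with 3 called genes below.

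Of all tested genes 2.87% were called, 0.691% higher and 2.18% lower. Lists were chosen with earlier results of these data known. Over the 46 lists 795 different genes were tested and 40 called, 25 higher and 15 lower, and 26 lists held no call. The list of glucosyltransferases, reductases, P450s and exporters of detoxification was among the latter, with OPR1 at -0.25 ± 0.28 and UGT73B5 at -0.03 ± 0.27. The mitochondrial retrograde genes NDB2 and DIC1 were at 0.59 ± 0.20 and 0.18 ± 0.32. NIT2 and NIT1, nitrilases with alike sequences, were at 1.56 ± 0.49 (adjusted p = 0.0978) and 0.75 ± 0.35. NIT2 was called with the block in the 6 libraries (adjusted p = 0.000971), by DESeq2 (0.0498), and without replicate a at 2 h (2.32) or replicate c at 1 h (1.62), and NDB2 without replicate a at 3 h (0.77). ERS1 and ETR2, ethylene receptors, were at -0.05 ± 0.22 and 0.08 ± 0.22. The cold- and osmotic-stress genes KIN2 and KIN1, a tandem pair with alike sequences, were at 0.19 ± 0.29 and -0.26 ± 0.29, and the Aux/IAA repressors IAA16 and IAA17 at 0.68 ± 0.25 and 0.52 ± 0.28.

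Transcription and signalling lists without a call had medians of 0.16 (WRKY factors), 0.53 (stress NAC factors) and 0.29 (calmodulin-like sensors). NAC081, a stress NAC factor, measured 627, 716 and 625 CPM at 2 h and 815, 977 and 1356 CPM at 3 h, with no overlap and an adjusted p of 0.0765 (0.68 ± 0.20), and NAC102 was at 0.49 ± 0.33. NAC081 was called with the block in the 6 libraries (adjusted p = 0.0421), by DESeq2 (0.0176), with the covariate (0.0454), without a filter (0.0416) and without replicate a at 3 h (0.88). CML12 and CML37, calcium sensors, were at 0.36 ± 0.23 and 0.78 ± 0.27, the second called without replicate a at 3 h (1.03). Of 26 tested zinc finger and ERF factors of the rapid response DREB19 was the single call (median 0.38), against 2.87% of all tested genes. The clock genes ELF4 and ELF3 were at 0.94 ± 0.26 (adjusted p = 0.062) and -0.17 ± 0.27. ELF4 was called with the block in the 6 libraries (adjusted p = 0.0321), by DESeq2 (0.0339), without a filter (0.0366) and without replicate c at 1 h (0.996).

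Metabolic and transport lists without a call were read through their named genes. PRODH1 and ASN1, proline breakdown and asparagine synthesis, were at 0.18 ± 0.23 and 0.84 ± 0.34, GLN1;2 and NIA2 of nitrogen assimilation at 0.64 ± 0.25 and -0.24 ± 0.20, and FER1 and OPT3 of iron handling at 0.33 ± 0.31 and 1.11 ± 0.37. The tonoplast water channels TIP1;1 and TIP1;2 were at -0.48 ± 0.27 and -0.39 ± 0.26, and CHS and PAL1 of phenylpropanoid synthesis at -0.33 ± 0.24 and -0.10 ± 0.19. JAL33 and NAI2 of the endoplasmic reticulum bodies were at 0.77 ± 0.30 and -0.17 ± 0.19. The autophagy receptor NBR1 was at 0.24 ± 0.22 and ATG8E, which coats the autophagosome, at -1.79 ± 0.56 (adjusted p = 0.101). XTH14 and PRX44, expressed in root hairs, were at 0.29 ± 0.41 and -0.01 ± 0.46, the second at 76.1, 99.2 and 55.8 CPM in water and 10.7, 13.7 and 9.40 CPM at 2 h. With the block in the 6 libraries ASN1 (adjusted p = 0.0063), OPT3 (0.00143), TIP1;1 (0.0343), JAL33 (0.0488) and ATG8E (0.0158) were called, and GLN1;2 was called without replicate a at 3 h (0.89).

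The step from 2 h to 3 h was also set against the step from 1 h to 2 h, which had 36 calls (0.361%), 32 of them higher (0.32%) and 4 lower (0.0401%). Both steps share the 2 h libraries. Their difference was called for 25 genes (0.25%), 24 of them with the lower second step, and all 24 were also called lower at 3 h. That overlap is in part built in, since the difference between steps contains the step from 2 h to 3 h. Overlaps with the first step also rest on the shared 2 h libraries. Of the 69 rising genes 8 had also been called higher from 1 h to 2 h, and none of the 218 falling genes had been called in that step. NAKR1 had the largest difference between steps, -4.97 ± 0.76 (adjusted p = 0.00677), with a first step of 1.57 ± 0.46. CARA differed by -3.94 ± 0.52 (adjusted p = 0.00162) and RBOHF by -3.60 ± 0.60 (adjusted p = 0.00971).

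GUT15, a non-coding RNA, measured 13.8, 8.49 and 12.6 CPM at 1 h, 9.13, 22.6 and 11.1 CPM at 2 h and 0.689, 0.399 and 0.496 CPM at 3 h and differed between steps by -4.82 ± 0.81 (adjusted p = 0.00971). AT2G43090, an isopropylmalate dehydratase-type enzyme of leucine synthesis, differed by -4.26 ± 0.78 (adjusted p = 0.0202), AT1G02816 by -4.03 ± 0.79 (adjusted p = 0.0331) and AT5G11090 by -3.86 ± 0.66 (adjusted p = 0.0102). TCTP, PRXIIB, CESA6, BETA1-COP and AT4G02620 were among the other genes called. AKN2 alone had the higher second step, 1.92 ± 0.40 (adjusted p = 0.0452). No small heat shock gene was called for a difference between the steps, and HSP17.7 was at -0.01 ± 0.59 and HSP17.6II at 0.21 ± 0.56.

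Genes often read as markers of peroxide were followed one by one, whatever their test. ERF109 (AT4G34410), a redox-responsive factor, measured 11.2, 8.27 and 11.5 CPM in water, 177, 164 and 152 CPM at 1 h, 148, 123 and 175 CPM at 2 h and 72.8, 103 and 177 CPM at 3 h. It was at -0.35 ± 0.29 in the second step (normal 95% interval -0.91 to 0.21), and its libraries of both times overlapped. ZAT12, a zinc finger factor of oxidative stress, was at 0.54 ± 0.31 (95% interval -0.07 to 1.15), WRKY33 at 0.24 ± 0.19 and WRKY40 at 0.16 ± 0.20. APX2, the cytosolic ascorbate peroxidase induced by stress, measured 28.5, 21.6 and 22.2 CPM at 2 h and 47.8, 44.3 and 50.6 CPM at 3 h, with no overlap but no call (0.96 ± 0.29, adjusted p = 0.0827), and APX1 was at 0.25 ± 0.25.

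Catalase genes CAT1 and CAT2 were at 0.54 ± 0.21 (adjusted p = 0.224) and -0.32 ± 0.25 (adjusted p = 0.613). AOX1A, the alternative oxidase of mitochondria, measured 60.5, 20.6 and 21.4 CPM at 2 h and 88.6, 48.7 and 109 CPM at 3 h (1.19 ± 0.43, adjusted p = 0.17), with replicate a at 2 h inside the 3 h range. GSTU24 was at 0.72 ± 0.32 after a first step of 1.78 ± 0.35 (adjusted p = 0.0344), and BAP1, an inhibitor of cell death, at 0.44 ± 0.31. Of the 14 genes read in this way SMR5 alone was called. The block in the 6 libraries also called APX2 (adjusted p = 0.0214), AOX1A (0.00702), GSTU24 (0.0245) and HSFA2, DESeq2 called APX2 (0.0387), and AOX1A was called without replicate a at 2 h (1.99).

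Markers of cell types were read for the make-up of the samples, and none of their genes was called. Sums of marker genes were scaled to the total count of each library without the TMM factors, and are given as uncorrected CPM. Over the 9 endodermis and Casparian strip genes in the table they were 1081.5 to 1294 at 2 h and 826 to 987 at 3 h. These ranges did not overlap on that scale, and whether they overlap after TMM correction was not tested. Of the 6 tested genes 0 had a difference above 0 (median -0.17), against 50.0% of all tested genes. Of the 7 tested suberized endodermis genes 5 were above 0 (median 0.22). CASP1 was at -0.35 ± 0.24 and ESB1 at -0.26 ± 0.25. Dividing-cell genes summed to 38.4 to 62.3 and 20.15 to 58.8 uncorrected CPM (CDC20.1 at -0.54 ± 0.38, CDKB2;2 at 0.05 ± 0.36). Xylem and stele genes summed to 330 to 488 and 307 to 517 uncorrected CPM (XCP2 at -0.13 ± 0.20, SUC2 at 0.51 ± 0.31). Suberized endodermis genes summed to 133 to 168 and 103 to 213 uncorrected CPM (CYP86A1 at 0.06 ± 0.32, KCS2 at -0.55 ± 0.34). Photosynthesis genes, which would mark shoot tissue, summed to 893 to 958 uncorrected CPM at 2 h and 789.6 to 915 at 3 h. Of these, PSBO1 was at -0.25 ± 0.28 and LHCB6 at -0.03 ± 0.25. The organelle transcripts ATMG00020 and ATMG01390 were at -0.27 ± 0.46 and -0.20 ± 0.48. The part of these levels in the calls was not tested.

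The authors' deposited table gives its own comparison of these libraries, with the sign turned to 2 h over 3 h. There are 340 genes with an adjusted p under 0.05 in the authors' deposited table, 106 of them higher and 234 lower at 3 h, which puts 31.2% on the higher side. Of the 287 genes called here 274 are called in the same direction in the authors' deposited table, which is 95.5% of the genes called here and 80.6% of theirs.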

How the data were processed

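Roots were profiled by MARS-seq, a 3' tag method, and the deposited table gives raw counts per gene, made by the authors. Per the submitters' processing notes, bcl2fastq, cutadapt, STAR 2.4.2a, HTSeq and DESeq2 were used. The sources used here name neither genome build nor annotation, strand setting or use of molecular identifiers. This same deposited table holds the authors' log2 fold changes and adjusted p-values. Another 30 per-sample columns were not used. Gene names came from RefSeq for 14497 of 14532 IDs.

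From the counts, edgeR 4.0.16 in R 4.3.3 kept genes passing its filter by group (minimum count 10, minimum total 15), scaled by TMM and fitted a robust quasi-likelihood model of 5 groups over 15 libraries (10 residual degrees of freedom). Contrasts of 3 h with 2 h, 2 h with 1 h, the difference of these steps, 1 h with water and RB with water were adjusted by Benjamini-Hochberg at 0.05. Common biological variation (coefficient) came to 0.272 and the median SE of a difference to 0.37. Totals per library ran from 689372 to 6231140 counts. Fitting was tested on simulated data. Samples were grouped by their labels, which call them biological replicates without saying what a letter marks. Residuals of same-letter libraries at 2 h and 3 h correlated at 0.473 (a), 0.254 (b) and 0.150 (c). What lies behind these correlations, depth included, was not tested. The letter entered as a block in alternatives alone, and the main model has no term for it.

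Named genes were the 12 largest called differences in each direction with separate groups and a mean of at least 20 CPM in the higher group, up to 4 called members of each list or, with none, the 2 most abundant, 14 peroxide markers, and up to 6 unequal steps in each direction. Members and lists were chosen with earlier results of these data known. Alternatives were DESeq2 1.42.0, other scalings and filters, total count as a covariate, thinning to 689372 counts, removal of organelle genes, fits to the 6 libraries, the replicate block and leaving out each library of the treatment.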

Additional observations from a re-analysis of the deposited data

Results flagged for a closer look

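The steps from 1 h to 2 h and from 2 h to 3 h, which share the 2 h libraries, differed by a test of the difference itself for 25 genes, and 24 of these had the lower second step. The log2 difference between the steps was -4.97 for NAKR1, -4.82 for GUT15, -4.26 for AT2G43090, -4.03 for AT1G02816, -3.94 for CARA and -3.86 for AT5G11090. It was 1.92 for AKN2. Without replicate b at 2 h 5 genes were called for unequal steps, and without replicate c at 3 h 29.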

How the results depend on the processing

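Against 287 genes called, 69 higher and 218 lower, and 25 unequal steps, DESeq2 called 122 higher and 38 unequal steps. Thinning to equal depth gave 111 calls, 32 higher and 79 lower, and 8 unequal steps. Of the named calls, thinning lost 9 of the 29 higher and 6 of the 30 lower, besides those then not tested. Higher calls numbered 141 with total count as a covariate (35.1% of calls), 119 without a filter (35.4%) and 28 in the 6 libraries alone. The replicate block within the 6 libraries, added after seeing the data, gave 616 calls, 238 higher and 378 lower (38.6% higher). Leaving out 1 library gave 133 to 414 calls, 9 to 218 higher, 117 to 232 lower and 5 to 29 unequal steps. Of the 69 higher genes 3 and of the 218 lower genes 74 were called in every alternative. The replicate block over 15 libraries changed no named call beyond those given with their genes. Over the named genes and alternatives, 2162 results kept direction and side of the threshold, 174 lost a call, 29 gained one and 60 turned sign, the last all of genes with no call. The cause was not tested. Depth limits genes with few counts, and 4546 genes have no test. Signs turned, as log2 differences, with DESeq2 for PRX44 (0.00794), with RLE factors for PRX44 (0.00359), with organelle genes removed for PRX44 (0.011) and with the block for PRX44 (0.038). They turned after thinning for CDKB2;2 (-0.208), in the 6 libraries for CYP86A1 (-0.013) and there with the block (-0.168). Upper-quartile factors turned ETR2 (-0.014), CYP86A1 (-0.066) and CDKB2;2 (-0.033). The covariate turned OPR1 (0.038), UGT73B5 (0.226), DIC1 (-0.046), ERS1 (0.079), ELF3 (0.090), LHCB6 (0.161), ATMG00020 (0.512) and ATMG01390 (0.576). No filter turned UGT73B5 (0.096), ERS1 (0.086), PRX44 (0.106), PAL1 (0.023) and LHCB6 (0.091). Across sets without 1 library the ranges were -0.439 to 0.080 for OPR1, -0.213 to 0.199 for UGT73B5, -0.122 to 0.571 for DIC1, -0.163 to 0.104 for ERS1, -0.00409 to 0.218 for ETR2, -0.218 to 0.537 for KIN2, -0.707 to 0.038 for KIN1 and -0.136 to 0.607 for XTH14. They were -0.278 to 0.183 for PRX44, -0.193 to 0.025 for PAL1, -0.345 to 0.021 for ELF3, -0.530 to 0.424 for CYP86A1, -0.196 to 0.106 for XCP2, -0.119 to 0.262 for CDKB2;2, -0.431 to 0.028 for PSBO1 and -0.167 to 0.288 for LHCB6. They were -0.533 to 0.154 for ATMG00020, -0.516 to 0.116 for ATMG01390, -0.069 to 0.870 for ZAT12 and -0.086 to 0.809 for BAP1.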
